A study of Mus musculus with 6 samples.

Results

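The genes of the constitutive proteasome were examined in cortical astrocyte cultures of control mice and of mice with a knockout of Neo1, which encodes the receptor neogenin. Members were taken by symbol as the genes named Psma, Psmb, Psmc, Psmd or Psme followed by a number, leaving out the immunoproteasome subunits Psmb8, Psmb9 and Psmb10. This gave 40 genes of 54532 in the count table: 16 of the core particle, 20 of the 19S regulatory particle and 4 activators (Psme1 to Psme4). All 40 passed the filter on low counts, and the smallest of them, Psma8 and Psmb11, stood below 1 CPM (counts scaled to a common library size) in every library.

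The proteasome is the protease that degrades proteins tagged with ubiquitin. Its core particle is a barrel of stacked rings, with outer alpha rings that gate the entrance and inner beta rings that hold the catalytic sites. The 19S particle caps the barrel, binds and unfolds ubiquitinated proteins with a ring of ATPases and removes their ubiquitin in a lid. PA28 and PA200 are alternative caps that work without ubiquitin, and PA28 alpha and beta, with the immunoproteasome subunits, are known as genes induced by interferon gamma in many cell types, astrocytes included.

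The 6 libraries came from cultures labelled as primary astrocytes, 3 from pups labelled GFAP-Cre::NEOf/f knockout and 3 from pups labelled only control, which the series' design text calls littermates. Library names of the controls carry the floxed gene without the Cre, so the floxed allele may be common to both groups. The Cre is driven by the Gfap promoter, which acts in astrocytes and in some neural progenitors, so other cells in a culture need not carry the deletion. The labels give no age or pooling, and do not say which litter or culture a library came from. The p-values below therefore rest on how far these 6 libraries scatter, and part of that scatter may be technical.

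Neo1, read as a check of the labels, was at 189, 189 and 198 CPM in control libraries 1 to 3 and at 101, 106 and 105 CPM in knockout libraries 1 to 3. CPM, the counts per library scaled with edgeR's TMM factors, is used throughout. Neo1 transcript thus remained in the knockout cultures at a log2 fold change of -0.89. Totals ran from 60819277 to 106081115 counts per library. On principal components of all tested genes the genotypes lay apart along the first (49.3% of variance), and knockout replicate 2 lay far from the other knockout libraries along the second (19.6%). By the test and threshold given below, 38.3% of all genes tested were called. Of 9 astrocyte markers, 2 rose and 5 fell, with log2 fold changes from -1.13 (Gfap) to 1.48 (Slc1a2). The summed level of the 9 was 2690 to 2761 in control and 2471 to 2605 CPM in knockout libraries. All 8 fibroblast and meningeal markers rose (summed, 7652 to 8147 against 10736 to 11483 CPM), while 8 of 10 microglial markers fell and 1 rose (59.5 to 61.9 against 28.9 to 32.2 CPM). Of 5 endothelial markers 2 rose and 1 (Cldn5) was not tested (39.1 to 42.3 against 69.5 to 72.5 CPM). Of 6 neuronal markers 1 rose and 1 fell (117 to 135 against 126 to 130.4 CPM). Of 7 markers of the oligodendrocyte lineage 1 rose, 3 fell and 1 (Mog) was not tested (261 to 264 against 232 to 268 CPM). In bulk cultures, fewer cells of a type and less RNA per cell cannot be told apart, and the part of these shifts in the proteasome results was not tested.

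Proteasome subunits did not move as a block. By edgeR's quasi-likelihood test with a Benjamini-Hochberg adjusted p under 0.05, 15 of 40 members were higher in knockout cultures, 1 was lower and 24 were not called. Of all 18530 genes tested, 38.3% were called, 19.6% as higher and 18.7% as lower. The 16 called members of 40 are thus a share near the background for both directions together. By direction they split 15 to 1, while the calls over all genes were nearly even. Whether this split goes beyond the background was not tested. The 3 knockout libraries lay above the 3 controls for 17 members and below them for 3, and the groups overlapped for 20. Over all genes tested the knockout libraries lay above the controls for 4584 and below them for 4545, together 49.3%. Over the parts of the complex the called rises lay in the alpha ring (6 of 7), the 19S (6 of 20) and the activators (3 of 4), and 0 of the 7 beta subunits Psmb1 to Psmb7 were called. Without knockout replicate 2 the higher and lower calls were 6 and 0 in the core, 5 and 2 in the 19S and 3 and 0 among the activators.

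**Figure D1:**
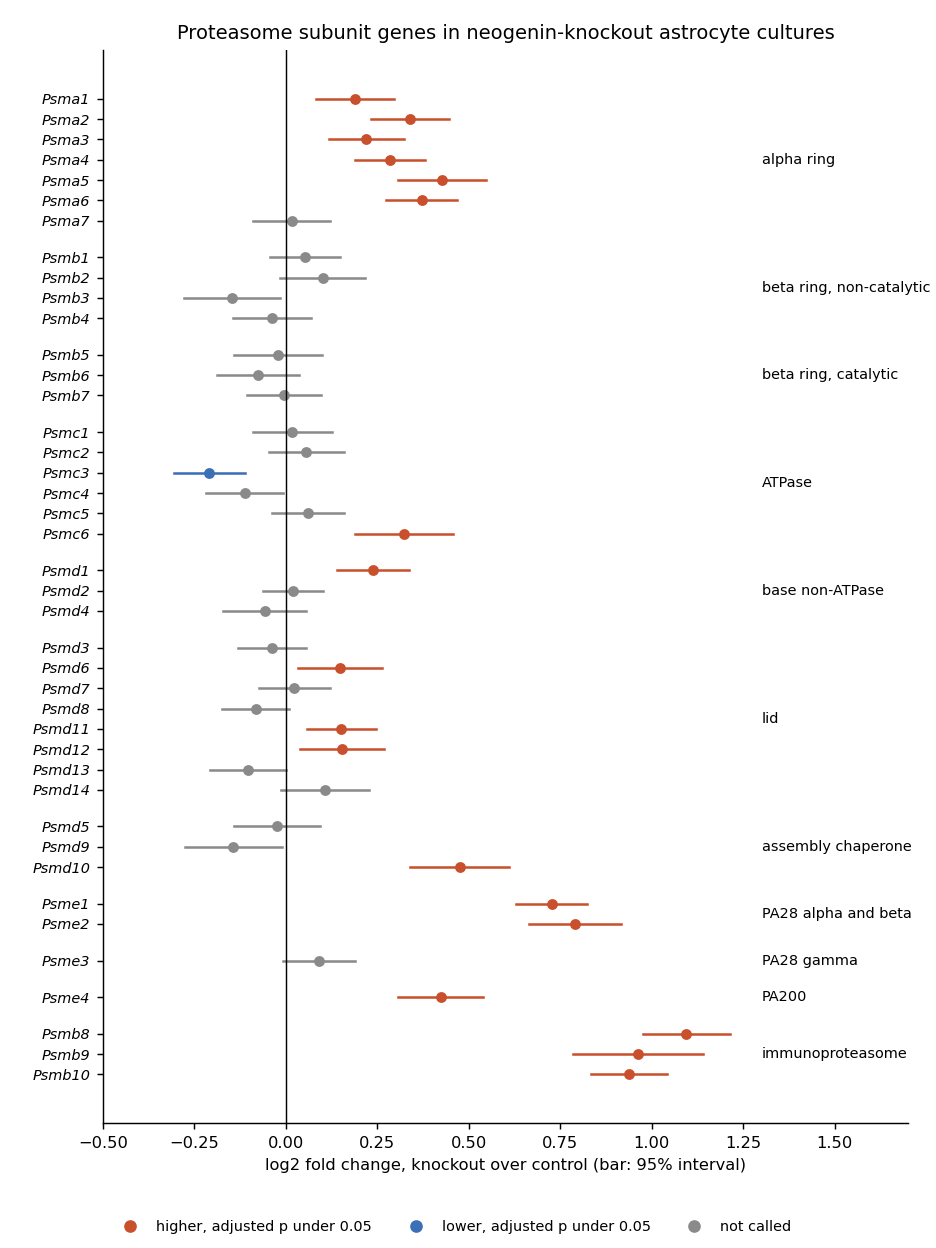
Log2 fold change of knockout over control cultures for 38 members and the 3 immunoproteasome subunits, grouped by role, with 95% intervals from edgeR; Psma8 and Psmb11, at trace level, are left out. Psma1 to Psma6, Psme1, Psme2 and Psme4 lie right of 0 and the points of Psmb1 to Psmb7 fall on both sides of it, from -0.15 to 0.10.

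The alpha ring is built of 7 different subunits, which form the outer ring, hold the gate and dock the caps. Psma6 was the most abundant of the core transcripts per kilobase of exon and was at 242, 247 and 236 in control and 304, 332 and 303 CPM in knockout libraries. Psma5 was at 109, 103 and 97.7 in control and at 143, 145 and 128 CPM in knockout libraries. For both genes every knockout library lay above every control library. The log2 fold changes by edgeR's quasi-likelihood test were 0.37 (SE 0.05, Benjamini-Hochberg adjusted p = 4.9e-06) for Psma6 and 0.43 (SE 0.06, adjusted p = 1.2e-05) for Psma5.

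Psma2, whose amino-terminal tail lies in the gate like those of its neighbours, was at 131, 134 and 127 in control and 163, 177 and 157 CPM in knockout libraries. Psma4, whose tail is best known for closing the gate, was at 125, 125 and 122 in control and 154, 153 and 147 CPM in knockout libraries. Neither gene showed any overlap between the groups, and the log2 fold changes were 0.34 (edgeR, adjusted p = 3.8e-05) and 0.29 (edgeR, adjusted p = 6.9e-05). Psma3 was at 119, 117 and 110.1 in control and 135, 137 and 131 CPM in knockout libraries. Psma1 was at 85.6, 85.8 and 83.4 in control and 95.9, 101 and 92.8 CPM in knockout libraries. These were the smallest called rises of the ring, also without overlap, at 0.22 (edgeR, adjusted p = 0.0014) and 0.19 (edgeR, adjusted p = 0.0067). The call of Psma1 was lost when libraries were scaled by total counts alone (edgeR, adjusted p = 0.0596). Psma7 stood apart from the rest of its ring: it was at 119, 123 and 110.1 in control and 118, 119 and 118 CPM in knockout libraries. Its groups overlapped and its log2 fold change was 0.02 (95% interval -0.09 to 0.12), reversing in sign under total-count and upper-quartile scaling and without control replicate 3 (-0.03). The median log2 fold change over Psma1 to Psma7 was 0.29, beside -0.0018 over all genes tested.

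The germ-line alpha subunit Psma8, a testis-specific replacement of Psma7, was at 0.30 to 0.70 in control and 0.37 to 0.53 CPM in knockout libraries and was not called. A processed pseudogene annotated as Gm13835 is identical to Psma3 over 665 aligned bases and held counts equal to 39.5% of those of Psma3. Reads of such a pair may be split by the counting. Gm13835 itself was at 44.9 ± 1.68 CPM in the control and 53.9 ± 2.95 CPM in the knockout group (SD, n = 3), and pooling it and the smaller copies with Psma3 gave a log2 fold change of 0.23. Psma5 also has a pair of near-identical pseudogenes, with 7.78% and 6.24% of its counts.

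Because 6 of the 7 alpha-ring genes rose together, their start-site regions were compared. RefSeq windows of 250 bases before to 50 bases after each start (GRCm38.p6) were given for 33 of the 40 members. There were 32851 windows for 27025 genes, and a gene counted once if any of its windows held a match. Motifs were chosen with the expression values known, were searched on both strands, and a match describes letters only. The CCAAT box, CCAAT, was in the windows of 5 of 7 alpha-ring genes (71.4%), in 39.4% of the members and in 41.1% of all 27025 genes. Psma7, which was not called, was among the 5, and Psma4 and Psma5, which rose, were not. Windows of 30 bases around matches in Psma1, Psma2 and Psma3 are shown, read in the direction of transcription, with the box in capitals, to let the flanks be compared.
Psma1, chr7:114276195-114276224, minus strand, first base of the box at position -98: gagcttcctgCCAATcccacgttctcagct
Psma2, chr13:14613178-14613207, plus strand, position -54: tgactctcctCCAATcagagcaaagaagaa
Psma3, chr12:70974474-70974503, plus strand, position -139: cttagctcttCCAATaccagtttcagttga
The flanks differ, and the distance from the start differs between the 3 genes.

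The beta ring holds the proteolytic sites in Psmb5 (chymotrypsin-like), Psmb6 (caspase-like) and Psmb7 (trypsin-like). Psmb5 was at 77.6, 74.0 and 75.7 in control and 78.8, 68.9 and 76 CPM in knockout libraries. Psmb6 was at 166, 165 and 146 in control and 151, 155 and 147 CPM in knockout libraries. Psmb7 was at 93.1, 92.5 and 90.3 in control and 90.005, 93.6 and 91.3 CPM in knockout libraries. The groups overlapped for all 3 genes. Their log2 fold changes were -0.02 (95% interval -0.14 to 0.10) for Psmb5, -0.08 (-0.19 to 0.04) for Psmb6 and -0.01 (-0.11 to 0.10) for Psmb7, so rises of the size seen in Psma2, Psma5 or Psma6 lie outside these intervals. The sign of Psmb5 changed without knockout replicate 2 (0.03) and that of Psmb7 without knockout replicate 1 (0.01). Psmb6 was called lower under total-count scaling (edgeR, adjusted p = 0.042) and without control replicate 3 (0.022).

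The non-catalytic beta subunits Psmb1, Psmb2, Psmb3 and Psmb4 complete the ring, and they too overlapped between the groups. Their log2 fold changes were 0.05, 0.10, -0.15 and -0.04. Over Psmb1 to Psmb7 the median was -0.02. By edgeR 0 of the 7 were called at the adjusted threshold, and 1, Psmb3, had an unadjusted p under 0.05. DESeq2 and limma-voom called 0 as well. Psmb3 was at 112, 113 and 99.5 in control and 103, 88.9 and 101 CPM in knockout libraries (edgeR, adjusted p = 0.071). It was called lower in 5 of the 16 other settings with the threshold of 0.05. Among the 5 were those without control replicate 3 (edgeR, adjusted p = 0.014) and without knockout replicate 1 (edgeR, adjusted p = 0.044). Over the 16 settings its log2 fold changes ran from -0.21 to -0.09. Psmb11, the catalytic subunit of the thymus proteasome, was at 0.06 to 0.19 in control and 0.15 to 0.26 CPM in knockout libraries, and its log2 fold change of 0.95 had a 95% interval from -0.73 to 2.63. A difference in Psma8 or Psmb11 was not detectable at this depth.

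Psmb5 and Psmb6 were, of the 12 core genes with a window, those with a match to the core letters of the antioxidant response element, TGACNNNGC, the element to which the factors encoded by Nfe2l1 and Nfe2l2 are known to bind. These letters were in windows of 18.2% of the members and 14.0% of all genes with a window. Both matches are shown with the element in capitals, since they lie in catalytic genes that were not called, beside the match in Psme4, which rose; there the element reads on the other strand.
Psmb5, chr14:54618023-54618052, minus strand, position -47: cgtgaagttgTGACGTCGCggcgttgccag
Psmb6, chr11:70525338-70525367, plus strand, position -9: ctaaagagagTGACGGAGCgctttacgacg
Psme4, chr11:30771758-30771787, plus strand, position -7: cgctgcggctGCAGCGTCAccagaagagcc
The 6 members with these letters included 3 that rose (Psmc6, Psmd12 and Psme4) and 3 that were not called (Psmb5, Psmb6 and Psmd9).

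The alpha ring was also set against the beta ring within each library. The ratio of summed counts of Psma1 to Psma7 over Psmb1 to Psmb7 was 1.03, 1.04 and 1.07 in control libraries and 1.27, 1.36 and 1.24 in knockout libraries. All knockout libraries lay above all control libraries, and knockout replicate 2 was the highest. The alpha sum was 917 ± 26.4 CPM in the control and 1117 ± 44.0 CPM in the knockout group, and the beta sum was 878 ± 41.4 and 865 ± 10.7 CPM (SD, n = 3). These sums are weighted to the abundant genes and are not corrected for transcript length. The beta sum leaves out Psmb8, Psmb9 and Psmb10, which can take the places of Psmb5, Psmb6 and Psmb7. Their summed level was 179 ± 7.94 CPM in the control and 353 ± 13.3 CPM in the knockout group. This sum and the alpha sum both rose, so a ratio that counts them in the beta ring would differ less between the groups. That ratio was not computed, and the difference given here holds for the constitutive subunits alone. The core sums below leave them out as well.

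**Figure D2:**
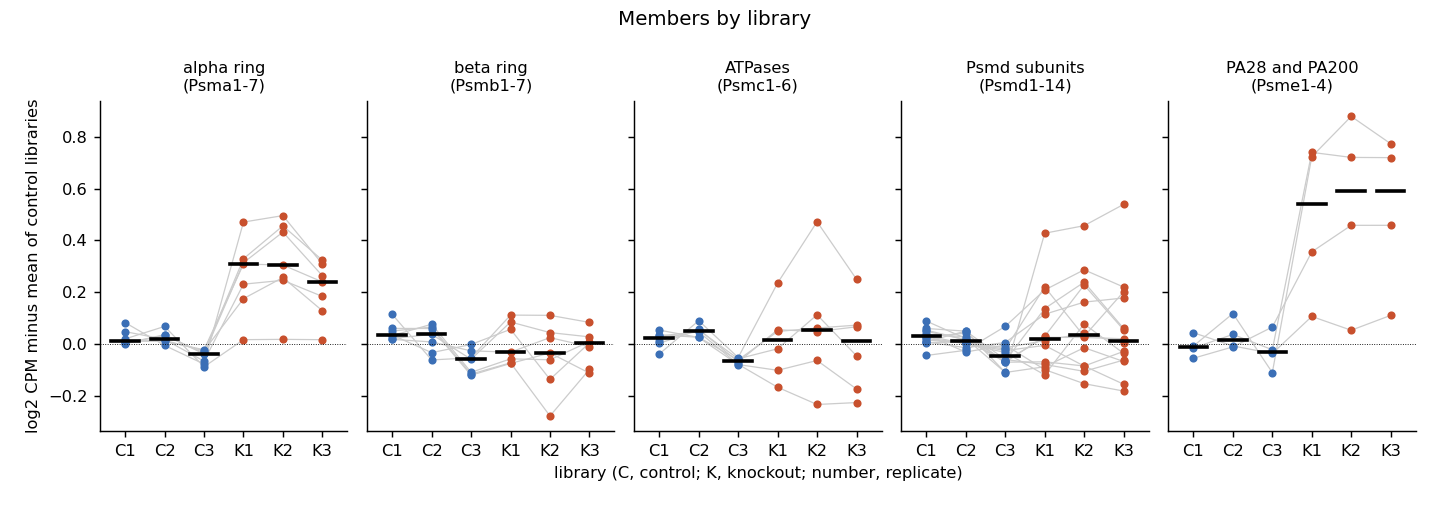
Log2 CPM of each member minus its mean in the control libraries, by library (C, control; K, knockout; number, replicate), with black bars for the median of each panel. The alpha-ring and Psme panels step up in K1, K2 and K3, and the beta-ring, ATPase and Psmd panels stay near 0. The beta-ring panel leaves out Psmb8, Psmb9 and Psmb10.

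In the 19S particle 6 of 20 members were higher and 1 was lower, 7 called in all, near the background of 38.3%, and the median log2 fold change was 0.02. The median became -0.04 when libraries were scaled by total counts, with 3 called higher and 5 lower. The summed level was 2991 ± 77.8 CPM in the control and 3043 ± 42.4 CPM in the knockout group (SD, n = 3). The core over 19S ratio of summed counts was 0.600 ± 0.00719 in the control and 0.651 ± 0.00578 in the knockout group, with no overlap between the groups.

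The ATPases Psmc1 to Psmc6 form the unfolding ring at the base. Psmc6 was at 85.4, 93.3 and 84.6 in control and 103, 122 and 104 CPM in knockout libraries. Psmc3 went the other way, at 229, 232 and 212.5 in control and 199.8, 191 and 192 CPM in knockout libraries. Neither gene overlapped between the groups, with log2 fold changes by edgeR's quasi-likelihood test of 0.32 (SE 0.06, adjusted p = 6.0e-04) for Psmc6 and -0.21 (SE 0.05, adjusted p = 0.0016) for Psmc3. Psmc3 was the only member of the 40 called lower in the comparison as fitted. Its exons share 215 bases with Slc39a13 on the opposite strand, 8.2% of its exon length. Whether strand was used in counting is not stated in the labels. Psmc1, Psmc2, Psmc4 and Psmc5 were not called, with log2 fold changes from -0.11 to 0.06. Psmc4 was called lower without control replicate 3 (edgeR, adjusted p = 0.016) or knockout replicate 2 (0.032) and under total-count scaling (0.0080).

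Of the other base subunits, Psmd1 is a scaffold that binds ubiquitin receptors. It was at 177, 179 and 191 in control and 210.3, 222 and 212 CPM in knockout libraries. The groups did not overlap, at a log2 fold change of 0.24 (edgeR, adjusted p = 5.0e-04). Its companion scaffold Psmd2 had the highest level per kilobase of the 19S genes (109 CPM per kb in control cultures) and a log2 fold change of 0.02 (95% interval -0.06 to 0.10). Psmd4, a ubiquitin receptor, had -0.06, and neither was called.

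The lid carries the deubiquitinase Psmd14 and the subunits that hold it. Psmd11 was at 141, 139 and 141 in control and 152, 157 and 159 CPM in knockout libraries. Psmd12 was at 99.4, 98.6 and 97 in control and 115, 100.4 and 113 CPM in knockout libraries, and Psmd6 at 101, 100.4 and 94.0 CPM against 108, 116 and 103 CPM. The knockout libraries lay above the controls in each gene, narrowly for Psmd12 in replicate 2 and for Psmd6 in replicate 3. The log2 fold changes were 0.15 for each, with edgeR adjusted p of 0.011 for Psmd11, 0.034 for Psmd12 and 0.042 for Psmd6. These were the least stable calls: Psmd11 lost its call in 3, Psmd12 in 7 and Psmd6 in 8 of 16 other settings. Among single libraries left out, Psmd11 lost it without control replicate 2 (edgeR, adjusted p = 0.0648) or knockout replicate 3 (0.0626). Psmd12 lost it without any library but knockout replicate 2 (edgeR, adjusted p from 0.0831 to 0.169), and Psmd6 without any but knockout replicate 3 (0.0767 to 0.139). Psmd14 had a log2 fold change of 0.11, and it, Psmd3, Psmd7, Psmd8 and Psmd13 were not called (-0.10 to 0.11), although all 3 knockout libraries lay below the controls for Psmd8. Without control replicate 3, Psmd8 and Psmd13 were called lower (edgeR, adjusted p = 0.030 and 0.028).

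Psmd5, Psmd9 and Psmd10 are chaperones that hold parts of the ATPase ring while the base is assembled and leave the finished particle. Psmd10, also known as gankyrin, was at 38.0, 37.7 and 33.7 in control and 49.0, 49.98 and 52.9 CPM in knockout libraries. The groups were far apart relative to their spread, and its log2 fold change of 0.47 (SE 0.06; edgeR, adjusted p = 1.3e-05) was larger than that of any finished 19S subunit. Psmd5 and Psmd9 had log2 fold changes of -0.02 and -0.14 and were not called. All 3 knockout libraries lay below the controls for Psmd9, whose exons share 25.5% of their length with Gm26745 on the opposite strand.

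The ETS-type letters CCGGAAG were found for 9 of the 17 genes of the 19S with a window (52.9%). The shares were 1 of 12 in the core, 2 of 4 in the activators and 9.93% of all genes. Median GC content of the windows, averaged within a gene, was 60.3% over the 19S genes and 52.8% over all genes. Its part in the share of 52.9% was not tested. Genes with a match included called ones (Psmc6, Psmd6, Psmd11 and Psmd12) and genes that were not called (Psmc1, Psmc2, Psmd2, Psmd4 and Psmd13). The matches of the 4 called genes are shown, with the letters in capitals, the last pair on the other strand.
Psmc6, chr14:45329714-45329743, plus strand, position -100: ggcgggccagCCGGAAGgggcggagccagt
Psmd6, chr14:14120971-14121000, minus strand, position -45: agagacgcgaCCGGAAGtcagactggcggc
Psmd11, chr11:80428594-80428623, plus strand, position -11: gagggcgggtCTTCCGGgtgtgtgtttccg
Psmd12, chr11:107479501-107479530, plus strand, position -17: gagcgggcgaCTTCCGGtgcgagtgacgag

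Psme1 and Psme2 had the largest log2 fold changes of all called members. They encode PA28 alpha and beta, which form 1 ring-shaped cap, and their genes lie near each other on chromosome 14 (Psme1 at chr14:55578123-55581529, Psme2 at chr14:55587441-55591113, GRCm38). Psme1 was at 83.4, 86.5 and 83.0 in control and 141, 139 and 139 CPM in knockout libraries. Psme2 was at 84.0, 91.6 and 78.2 in control and 139, 155 and 144 CPM in knockout libraries. Every knockout library stood far above every control library in both genes. The log2 fold changes by edgeR's quasi-likelihood test were 0.73 (SE 0.05, adjusted p = 9.4e-10) for Psme1 and 0.79 (SE 0.06, adjusted p = 9.2e-09) for Psme2. Psme1 and Psme2 together over the summed core stood at 0.0940 ± 0.00297 in the control and 0.144 ± 0.00273 in the knockout group (SD, n = 3).

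A near-identical gene on chromosome 11, Psme2b, matches Psme2 at 99.4% over 794 bases and held counts equal to 41.2% of those of Psme2. Psme2b moved from 35.7 ± 4.74 to 58.9 ± 4.66 CPM (SD, n = 3), a log2 fold change of 0.73. Which of the pair the reads come from is uncertain, and the pooled log2 fold change was 0.77. In the window of Psme1 lay a match to the core letters of the interferon-stimulated response element (GAAA, any 2 bases, then GAAA). The letters TTCNNNGAA of the gamma-activated site, also searched, were in 1 member (Psmd2, 3.03%) and in 9.55% of all genes with a window. The GAAA letters were in windows of 12.1% of the members and 3.99% of all genes, also in Psmb3, Psmd4 and Psmd9, which were not called. They were found for 1 of 4 activators, Psme1, and so not for Psme2. Of the 3 immunoproteasome genes 0 held the GAAA letters in a window, and 1, Psmb8, held the letters TTCNNNGAA. The match in Psme1, after the start site and on the other strand, is shown because Psme1 had the smallest p of the members.
Psme1, chr14:55578493-55578522, plus strand, position 10: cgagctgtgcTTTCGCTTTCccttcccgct

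Psme3 encodes PA28 gamma, a nuclear cap of the same family that is not known as an interferon-induced gene. It was at 115, 111 and 109 in control and 120.0, 116 and 120.4 CPM in knockout libraries. The libraries did not overlap, but the log2 fold change of 0.09 (95% interval -0.01 to 0.19; edgeR, adjusted p = 0.15) was not called. Psme4 encodes PA200, a large single-chain nuclear cap. It was at 58.2, 60.0 and 63.2 in control and 77.3, 83.0 and 83.0 CPM in knockout libraries. The groups were well separated, at 0.42 (SE 0.05; edgeR, adjusted p = 7.6e-06). Psme4 had the lowest level per kilobase of the activators, 7.21 CPM per kb in control cultures against 48.0 CPM per kb for Psme2.

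**Figure D3:**
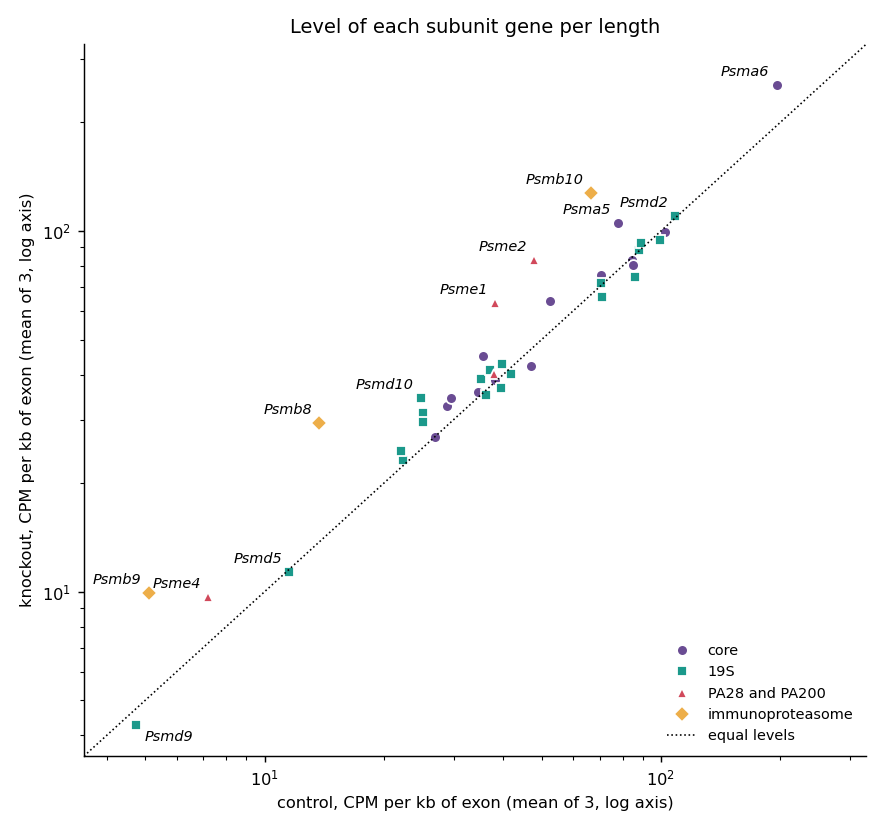
CPM per kilobase of exon in knockout (vertical) against control cultures (horizontal), both on log axes, with 1 point for the mean of 3 libraries of each member above trace level and each immunoproteasome subunit; the dotted line marks equal levels. Psme1, Psme2, Psma5 and Psma6 lie above the line, and Psmd9 and Psme4 are the members with the lowest levels.

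Per kilobase of annotated exon, core genes of the control cultures, without the trace genes, ran from 26.9 CPM per kb for Psmb7 to 196 CPM per kb for Psma6, with a median of 49.6. The 19S genes had a median of 38.3 CPM per kb, from 4.73 for the chaperone Psmd9 upward. Psma6 and Psmb7 thus differed 7.29-fold on this scale. The products of Psma6 and Psmb7 are present in equal number only in a particle without Psmb10. Psmb10, which can take the place of Psmb7, was at 66.7 CPM per kb in control cultures. The scale counts all annotated isoforms of a gene as its length and lowers genes with long alternative exons.

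The constitutive catalytic subunits were set beside their immunoproteasome replacements, Psmb8 for Psmb5, Psmb9 for Psmb6 and Psmb10 for Psmb7. Psmb8 was at 47.4, 46.6 and 45.5 in control and 106, 95.8 and 95.6 CPM in knockout libraries. Psmb9 was at 21, 18.6 and 16.3 CPM against 37.0, 36.9 and 34.7 CPM, and Psmb10 at 113, 120.4 and 108 CPM against 225, 214 and 214 CPM. All 3 rose without overlap, with log2 fold changes by edgeR's quasi-likelihood test of 1.09, 0.96 and 0.94 (Benjamini-Hochberg adjusted p = 5.1e-11, 6.1e-08 and 7.1e-11). Psmb8 shares 498 exon bases with an antisense gene, Gm20496. Psmb9 shares 212 with Tap1 and Psmb7 shares 405 with Nek6, also on the opposite strand.

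In each library the counts of a replacement were divided by those of its constitutive partner. Psmb8 over Psmb5 went from 0.614 ± 0.0144 in control to 1.33 ± 0.0675 in knockout cultures, Psmb9 over Psmb6 from 0.117 ± 0.00861 to 0.240 ± 0.00494, and Psmb10 over Psmb7 from 1.24 ± 0.0566 to 2.38 ± 0.111 (SD, n = 3). Every knockout library lay above every control library in each ratio. The two-sided exact permutation test gave p = 0.1 for each of the 3 ratios, also after Benjamini-Hochberg adjustment, which is the smallest value that 3 against 3 allows. The constitutive partners themselves were not called in the gene-wise fit. Markers of several cell types also differed between the groups. The 8 fibroblast and meningeal markers all rose, with summed means of 7863 CPM in the control and 11196 CPM in the knockout group. The summed endothelial markers had means of 40.8 and 71.2 CPM, most of it from Cdh5 (26.8 and 53.4 CPM). Kdr also rose (11.8 and 14.8 CPM), and Pecam1 and Tek, at 1.06 CPM each in control cultures, were not called. Of the 10 microglial markers 8 fell (Aif1, Cx3cr1, Csf1r, C1qa, C1qb, C1qc, Itgam and Ptprc), and the summed level of all 10 was 60.9 ± 1.22 CPM in the control and 30.8 ± 1.7 CPM in the knockout group (SD, n = 3). The remaining pair were P2ry12, near 0 at 0.28 and 0.26 CPM and not called, and Tmem119, which rose (4.66 and 6.76 CPM). The part of cell makeup in these ratios was not tested.

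**Figure D4:**
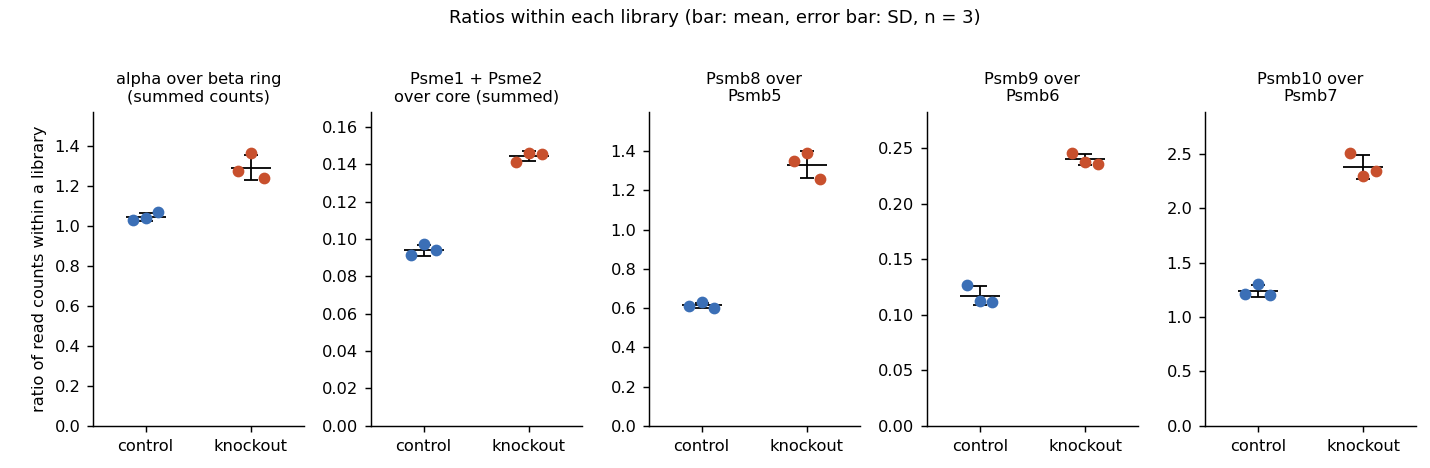
Ratios of counts in each library: summed alpha over beta ring, Psme1 plus Psme2 over the core, and each immunoproteasome subunit over its constitutive partner, with points for libraries, horizontal bars for group means and error bars for the SD (n = 3). The beta ring and the core leave out Psmb8, Psmb9 and Psmb10. In all panels the 3 knockout libraries lie above the 3 control libraries, with p = 0.1 by the exact permutation test for the 3 partner ratios.

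Among 29 measured genes for assembly and accessory factors, 5 rose and 6 fell, 11 called beside a background of 38.3%, and the median log2 fold change was 0.0036. Pomp, the chaperone that helps the beta ring mature, was at 113 ± 5.83 CPM in the control and 135 ± 2.05 CPM in the knockout group (SD, n = 3), a log2 fold change of 0.25 (edgeR, adjusted p = 5.2e-04). Ecpas, a scaffold that binds proteasomes, went from 98.9 to 143 CPM (0.53; edgeR, adjusted p = 2.3e-07). Psmf1, an inhibitor of the core, rose by 0.33 and Ddi2, the protease that activates the Nfe2l1 product, by 0.23 on the log2 scale. Adrm1, a ubiquitin receptor of the 19S, fell by 0.24, Akirin2, which carries proteasomes into the nucleus, by 0.20, and Zfand2b by 0.35.

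The factors Nfe2l1 and Nfe2l2, named here after their values were seen, moved in opposite directions, by 0.13 and -0.13. Of 31 ubiquitin, E1 and E2 genes 4 rose and 6 fell, 10 called beside a background of 38.3%, with a median of -0.04. Ubb, a polyubiquitin gene, went from 542 to 617 CPM (0.19). Uba6, an E1, rose by 0.41 and Ube2e1 by 0.23, while the mitotic E2 genes Ube2c and Ube2s fell by 0.53 and 0.33, Ube2t by 0.44 and Ube2g2 by 0.20.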

How the data were processed

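For 6 libraries made with poly-T beads from Trizol RNA, the submitters' processing notes name HISAT2 2.2.1, featureCounts 2.0.6 and the builds GRCm38 and mm10. The authors deposited 1 table of raw, whole-number counts by gene without normalization. Which annotation release and strand setting they used, and how multi-mapping reads were treated, was not stated in the labels, and each can move counts of genes with copies or opposite-strand neighbours. No 2 replicates were duplicates: chi-square per gene within groups ran from 6.00 to 22.2.

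The members and gene lists were chosen with earlier results of these data known. Genes passing filterByExpr (minimum count 10, minimum total 15; 18530 genes, 99.96% of counts) were fitted by genotype in edgeR 4.0.16 (R 4.3.3) with TMM, robust glmQLFit and glmQLFTest, as a two-sided test. Adjustment was by Benjamini-Hochberg over these genes, with a threshold of 0.05. The code was tested on simulated data. Standard errors derive from the test statistic. The partner ratios used counts plus 0.5 and the exact permutation test. Ratios of summed counts used no added count and were not tested.

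Every member is named. Catalytic and Psme genes, the 3 immunoproteasome genes, and up to 6 called core and 19S members per direction are given by library, and up to 4 called genes per direction with the smallest p are named in the other lists, apart from some that are not reported here. Copies were searched with BLAST 2.17.0 (at least 95% identity), exons came from GENCODE M21, and promoter windows from RefSeq. Alternatives were other scalings, DESeq2 1.42.0, limma-voom (limma 3.58.1), filters, no robust option, a replicate block, a threshold of 0.01, each library left out and, chosen after seeing the data, copies pooled.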

Additional observations from a re-analysis of the deposited data

How the results depend on the processing

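The 16 other settings counted for a gene are those with the threshold of 0.05. Psma8 and Psmb11 have 15, as they did not pass the filter of 1 CPM in 3 libraries. In all 16 settings the rises of Psma1 to Psma6, Psme1, Psme2, Psme4, Psmb8, Psmb9 and Psmb10 kept their direction. Each but that of Psma1 kept its call. Total-count scaling moved the median of all genes to -0.067 and their calls from 3627 higher and 3466 lower to 2921 higher and 4499 lower. Under it the core had 2 lower calls, both among Psmb1 to Psmb7, and a median of 0.0114, the 19S 3 higher and 5 lower and a median of -0.0436, and the activators a median of 0.51. There the alpha ring had 0.22, the beta ring -0.0873, the assembly list -0.0614, the immunoproteasome 0.896 and the ubiquitin list -0.109 with 12 lower calls. Upper-quartile scaling gave 1 lower call in the core, in the beta ring, and medians of -0.0125 for the assembly and -0.0605 for the ubiquitin list. Without a filter, 1 beta-ring gene of the core was called lower. At the threshold of 0.01 the 19S had 3 higher calls and the assembly list 2 lower. With single libraries left out, 19S higher calls ran from 3 to 5 and lower from 1 to 4, core and beta-ring lower calls from 0 to 2, assembly lower calls from 3 to 6, and medians from -0.0247 to 0.0231 for the assembly list, -0.0817 to -0.0156 for the ubiquitin list and 0.9 to 1.05 for the immunoproteasome. Leaving out control replicate 3 gave 2 lower calls in the core and 4 in the 19S. Signs of some members that were not called reversed. Under total-count scaling log2 fold changes became Psma7 -0.0488, Psmb1 -0.0127, Psmc1 -0.0478, Psmc2 -0.00891, Psmc5 -0.0042, Psmd2 -0.0455 and Psmd7 -0.0416. Psma7 gave -0.000325 under upper-quartile scaling and Psmb7 0.00115 with a 1 CPM filter. With single libraries left out, log2 fold changes ran from -0.0312 to 0.0434 for Psma7, from -0.417 to 0.183 for Psma8 (0.183 without control replicate 2), from -0.0655 to 0.031 for Psmb5, from -0.023 to 0.00628 for Psmb7, from -0.0321 to 0.0473 for Psmc1, from -0.0136 to 0.044 for Psmd7 and from -0.077 to 0.0208 for Psmd5. The causes were not tested. No pairing by replicate number was seen (correlations of deviations 0.015, 0.019 and -0.0082), and pairing by litter or culture could not be tested. With the replicate block the counts of higher and lower calls were 6 and 0 in the core, 6 and 1 in the 19S and 3 and 0 in the activators, as without it, with medians of 0.0772, 0.0217 and 0.575. The block gave partner log2 ratios of 1.12, 1.04 and 0.944. DESeq2 and limma-voom gave the same counts for these 3 groups. With 3 libraries per group, small differences such as those of Psmd6, Psmd11 and Psmd12 lie near the threshold.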
